A study of Mus musculus with 12 samples.

Results

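Zinc transporters and metallothioneins were followed in whole pancreatic islets as 9 genes, taken by name from the 24421 gene symbols counted in each library. They were 5 exporters of the Slc30a (ZnT) family, Slc30a8, Slc30a1, Slc30a5, Slc30a7 and Slc30a9, 2 importers of the Slc39a (ZIP) family, Slc39a6 and Slc39a14, and the metallothioneins Mt1 and Mt2. The 12 bulk RNA libraries came from islets of mice given a high-fat diet for 6 weeks. Of these, 6 were from Il22ra1βKO mice (BKO), in which interleukin-22 receptor subunit alpha 1 was deleted in β cells, and 6 were Ins2Cre mice (Cre), which carry the Cre recombinase named for the insulin gene Ins2. The sources used here do not name the strain, age, sex or any floxed allele of the Cre mice. They also do not say that libraries came from different animals, so the p-values reflect spread among libraries that may be technical.

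Zinc is concentrated in the insulin granules of β cells, where insulin hexamers are held together by zinc ions. ZnT proteins move zinc out of the cytosol, across the plasma membrane or into organelles and granules, and ZIP proteins move it in. Metallothioneins are small cysteine-rich proteins that bind zinc and other metals in the cytosol, and their genes, like Slc30a1, are switched on by the zinc-sensing transcription factor MTF1 through metal response elements.

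The bases before the annotated starts of Mt1, Mt2 and Slc30a1 are shown because these genes share this known regulator. Below are the 250 bases before each RefSeq gene start (GRCm38.p6), with matches to the core of the metal response element in capitals. The core was searched in 2 forms, TGCACNC and TGCGCNC, on either strand.
Mt1 (plus strand, chr8:94178839-94179088): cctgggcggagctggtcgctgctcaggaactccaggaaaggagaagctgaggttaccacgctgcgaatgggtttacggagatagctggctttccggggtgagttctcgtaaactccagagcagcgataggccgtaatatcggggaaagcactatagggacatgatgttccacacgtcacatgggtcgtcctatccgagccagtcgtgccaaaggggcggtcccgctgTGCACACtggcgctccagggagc
Mt2 (plus strand, chr8:94172368-94172617): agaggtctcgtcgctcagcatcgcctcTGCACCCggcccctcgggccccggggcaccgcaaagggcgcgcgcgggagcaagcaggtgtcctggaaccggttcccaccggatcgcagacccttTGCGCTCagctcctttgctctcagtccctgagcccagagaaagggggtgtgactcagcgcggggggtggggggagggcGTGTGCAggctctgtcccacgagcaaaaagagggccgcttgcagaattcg
Slc30a1 (plus strand, chr1:191906531-191906780): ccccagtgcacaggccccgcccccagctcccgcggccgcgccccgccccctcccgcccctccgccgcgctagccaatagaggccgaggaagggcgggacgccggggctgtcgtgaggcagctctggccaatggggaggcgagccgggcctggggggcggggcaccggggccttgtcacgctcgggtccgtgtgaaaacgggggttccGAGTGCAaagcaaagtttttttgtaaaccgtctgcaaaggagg

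Counting also the 50 bases after the start, which are not printed, the Mt2 window held 4 matches, the Mt1 window 3 and the Slc30a1 window 2. Overlapping matches were counted separately. Among 32851 promoter windows of 300 bases, 25.7% held at least 1 match, 7.11% at least 2, 1.97% at least 3 and 0.517% at least 4. The STAT motif TTCNNNGAA, searched because the IL-22 receptor signals through STAT3, had 0 matches in these 3 windows and was found in 8.30% of all windows. The Slc30a5 window held 1 match to the metal response core and those of Slc30a7 and Slc30a9 held 0. RefSeq windows were found for these 6 members and not for Slc30a8, Slc39a6 and Slc39a14. GENCODE places the start of Mt2 farther downstream, at 94172664, so which matches count as upstream depends on the annotated start. The same holds for Mt1, where the matches beginning 2 and 20 bases after the RefSeq start are not printed. Which start is used in islets was not examined, so the printed bases may not hold the whole promoter. A match is a description of letters and was not tested as a binding site.

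Between 10356093 and 12397139 reads per library were assigned to genes. Il22ra1 itself had between 1 and 5 reads per library, 13 in all BKO libraries and 16 in all Cre libraries, which is too few to check the deletion. All 10 β-cell markers, Ins1, Ins2 and Mafa among them, passed the filter on low counts. Levels are given in CPM, the reads of a gene scaled to the gene reads of its library, and a score is the mean log2 CPM of a marker list in 1 library. The β-cell score ran from 9.80 to 10.26 in BKO and from 10.12 to 10.38 in Cre, a mean difference of -0.24 (exact permutation p = 0.0260, two-sided). The α-cell score was 7.05 ± 0.280 in BKO against 6.6 ± 0.224 in Cre (SD, 6 libraries each; exact permutation p = 0.0130). Endothelial (5.69 against 5.24, exact p = 0.00649), duct (5.11 against 4.64, exact p = 0.0260) and stellate scores (2.46 against 1.84, exact p = 0.0433) were higher in BKO. Over the 10 lists scored, the Benjamini-Hochberg adjusted permutation p of the lists named here lay between 0.0649 and 0.0866. In bulk islets, fewer cells of a type and less RNA per cell cannot be told apart.

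Per exon length the 9 genes spanned a wide range of levels. As CPM per kilobase of merged exon (RPKM), Mt2 was at 2178 ± 319 and Mt1 at 1168 ± 126 (SD, n = 12 libraries). Together they took 0.273% ± 0.0342 of all gene reads. Slc30a8, the granule transporter ZnT8, came next at 125.5 ± 25.1 RPKM, followed by Slc39a6 at 19.6 ± 3.09 and Slc30a5 at 13.8 ± 0.619. The lowest levels were those of Slc30a7 (10.2 ± 0.585), Slc30a1 (8.75 ± 0.866), Slc30a9 (7.0 ± 0.469) and Slc39a14 (3.34 ± 0.290). Neighbours in this order had ranges that did not overlap, except that Slc30a7 exceeded Slc30a1 in 10 of 12 libraries and the ranges of Slc30a1 and Slc30a9 met, although Slc30a1 was above Slc30a9 in all 12. The merged length sums every annotated exon, 12374 bases for Slc30a9 against 588 for Mt2, so genes with long alternative exons are understated. For Mt1 it was 1246 bases, so the order of Mt2 and Mt1 rests on the length used. By CPM Mt1 (1456 ± 157) was above Mt2 (1281 ± 187), with a ratio of at least 1.05 in every library.

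**Figure D1:**
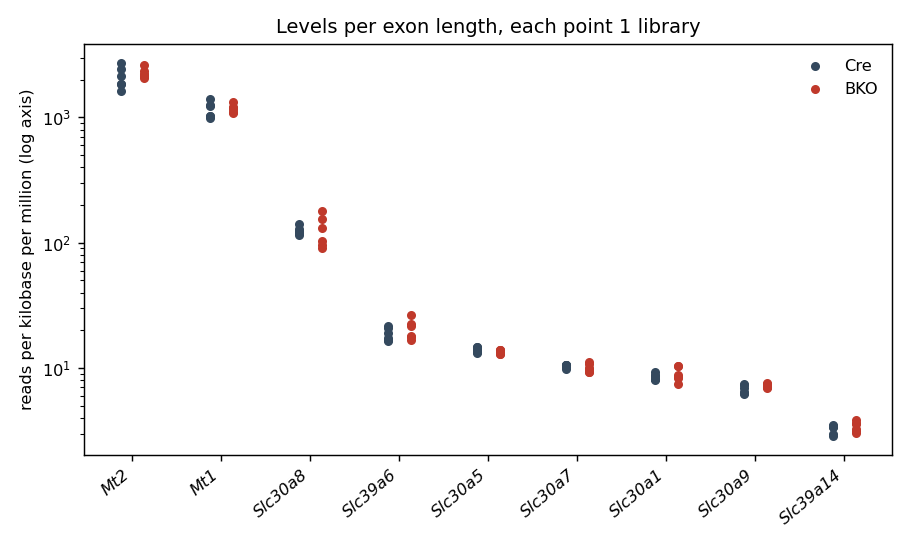
Level of each member in RPKM (log axis), in order of the mean; each point is 1 library, Cre in dark blue and BKO in red. Mt2 and Mt1 lie at 993.5 or higher in every library, Slc30a8 between 90.2 and 180.0, and the other 6 genes at 26.5 or lower.

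No member passed the test between genotypes. Counts of 13583 genes were tested with the quasi-likelihood method of edgeR, and p-values were adjusted over all of them by Benjamini-Hochberg, with a threshold of 0.05. The test called 0 of the 9 members and 0% of all genes, and DESeq2 called 0 of the 9 members against 1.64% of all genes. The smallest adjusted p of any gene in the edgeR fit was 0.121. At an unadjusted p under 0.05, 0 of the 9 members passed, against 13.4% of all genes. The CPM of BKO and Cre libraries overlapped for each of the 9 members, while 0.508% of all genes had groups that did not overlap. The log2 fold changes (BKO against Cre) were positive for 7 members and negative for 2, where 52.8% of all genes were positive. Their median was 0.069 over the 9 members and 0.0078 over all genes.

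**Figure D2:**
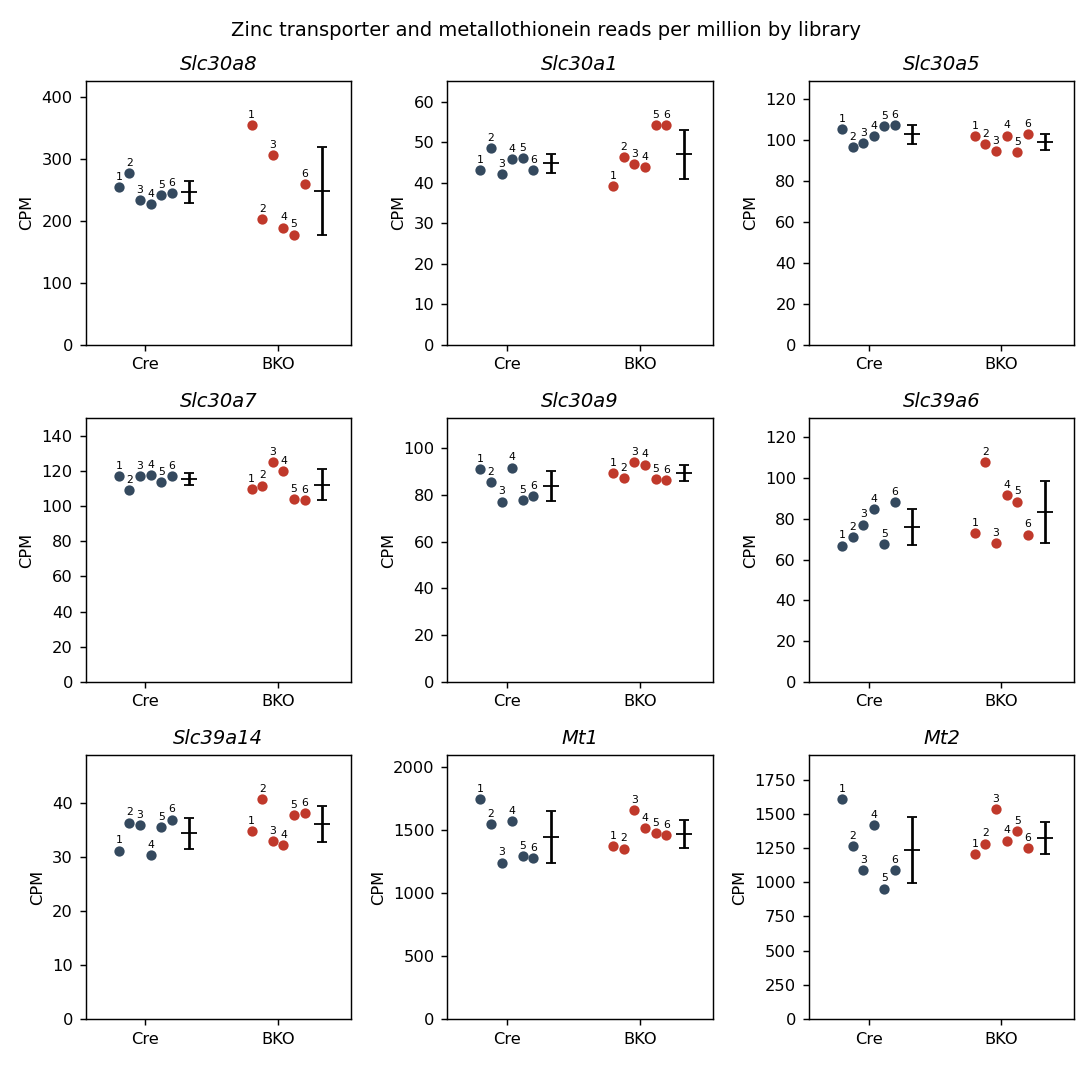
CPM of each member in the 6 Cre (dark blue) and 6 BKO (red) libraries, with replicate numbers beside the points and the group mean ± SD as bars; axes start at 0. The groups overlap in every panel, and Slc30a8 spreads from 177.8 to 354.7 in BKO but only from 226.6 to 277.1 in Cre.

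Slc30a8 loads zinc into insulin granules and is largely restricted to islet endocrine cells. Its annotated gene (mm10, chr15:52295553-52335798, plus strand) overlaps no other. In the BKO libraries it was at 354.7, 202.4, 306.1, 189.0, 177.8 and 259.6 CPM (replicates 1 to 6), and in the Cre libraries at 253.8, 277.1, 233.8, 226.6, 241.8 and 245.0 CPM. BKO-1 and BKO-3 stood above every Cre library and BKO-2, BKO-4 and BKO-5 below every Cre library. The group means, 248 ± 71.3 and 246 ± 17.7 CPM (SD, 6 libraries each), gave a log2 fold change of 0.011 ± 0.16 (SE), with an exact permutation p of 0.853 (two-sided) and an edgeR adjusted p of 0.989. The 95% interval ran from 0.791-fold to 1.28-fold, the widest of the 9 on the log2 scale. The sign turned when BKO-1, BKO-3, BKO-6, Cre-3 or Cre-4 was left out, reaching -0.12 without BKO-1.

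The means of Slc30a8 were close while its spread was not. The SD of its log2 CPM was 0.405 across BKO libraries and 0.101 across Cre libraries, against medians of 0.137 and 0.112 over the 10239 genes with a mean log2 CPM of at least 3. The ratio of these SDs, 3.99, was exceeded by 1.03% of those genes. This is a description, since the difference in spread was not tested. With at least 1881 Slc30a8 reads per library, counting error alone is about 2.31%.

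Slc30a8 was highest in the BKO libraries with the highest β-cell marker score, a list that does not hold Slc30a8. The score was 10.26 in BKO-1 and 10.22 in BKO-3, where Slc30a8 was highest, and 9.80 in BKO-5 and 9.83 in BKO-2, where it was low. BKO-4 and BKO-6 had close scores, 9.975 and 9.99, but Slc30a8 at 189.0 and 259.6 CPM. Over all 12 libraries Pearson's r of the log2 CPM with the score was 0.648 (permutation p = 0.0228, Benjamini-Hochberg adjusted 0.0684 over 6 relations) and Spearman's rho 0.580 (permutation p = 0.0522, adjusted 0.120). Neither passed the adjustment. Pearson's r was 0.924 within BKO and 0.157 within Cre, a difference that was not tested, and 0.537 over the libraries left without BKO-1 and BKO-5, the 2 farthest from the median. The acinar score of these BKO libraries, 6.84 in BKO-1 and 6.81 in BKO-6 against 7.87 to 8.56 in the other 4, was low in 2 of the 3 libraries with the highest Slc30a8. The endothelial score was lowest in BKO-1 (5.48) and BKO-3 (5.545) and highest in BKO-5 (5.895) and BKO-2 (5.88). It was 5.62 in BKO-4 and 5.74 in BKO-6. The part of either score in the spread was not tested.

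The genes whose pattern over the 12 libraries was nearest to that of Slc30a8 were Dpp4, Chic1 and Adh1. Dpp4 encodes a peptidase that cleaves incretin hormones, and Adh1 an alcohol dehydrogenase. Their log2 CPM deviated from that of Slc30a8, each centred on its mean, by a root mean square of 0.102, 0.103 and 0.109, where the median gene among 10238 differed by 0.296. Dpp4 stood at 140 CPM in BKO-1 and 77.4 CPM in BKO-5, and Adh1 at 119 and 71.2 CPM.

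Among the other exporters, Slc30a1 carries zinc out across the plasma membrane. It was at 39.2, 46.3, 44.55, 43.8, 54.3 and 54.2 CPM in BKO and at 43.2, 48.6, 42.0, 45.7, 46.0 and 43.1 CPM in Cre, so BKO-5 and BKO-6 were above all Cre libraries and BKO-1 below them. Its log2 fold change was 0.071 ± 0.076 (SE; edgeR adjusted p = 0.759), with an interval from 0.940-fold to 1.17-fold. Reads in the part of Slc30a1 shared with the exons of 1700034H15Rik on the opposite strand cannot be assigned with certainty, because the labels do not say whether strand was used. The gene spans chr1:191906767-191913247 on the plus strand (mm10).

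Slc30a5 (chr13:100802648-100833427) and Slc30a7 (chr3:115938973-116007406), both on the minus strand, supply zinc to the early secretory pathway. Slc30a5 ranged from 93.9 to 102.5 CPM in BKO (median 99.8) and from 96.2 to 107.1 CPM in Cre (median 103.4). All 6 BKO libraries lay below the Cre mean, by little, since the log2 fold change was -0.054 ± 0.047 (SE; edgeR adjusted p = 0.682) and the interval ran from 0.899-fold to 1.03-fold. Slc30a7 ranged from 103.3 to 125.1 CPM in BKO (median 110.7) and from 109.0 to 117.9 CPM in Cre (median 117.2). BKO-3 and BKO-4 were above all Cre libraries and BKO-5 and BKO-6 below them. The log2 fold change of Slc30a7 was -0.038 ± 0.053 (SE; edgeR adjusted p = 0.833), with an interval from 0.901-fold to 1.05-fold, and its exons overlap Gm43106 and Gm6649 on the opposite strand.

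Slc30a9 (chr5:67306955-67358443, plus strand), an exporter of zinc from mitochondria, had the smallest edgeR p of the 9 members. It was at 89.4, 87.4, 94.1, 93.0, 86.8 and 86.3 CPM in BKO and at 91.15, 85.6, 77.2, 91.75, 77.8 and 79.6 CPM in Cre. The BKO libraries kept within a narrow band and all 6 were above the Cre mean, while the Cre libraries fell into 3 between 77.2 and 79.6 CPM and 3 of at least 85.6 CPM. The log2 fold change was 0.094 ± 0.055 (SE), with an unadjusted edgeR p of 0.102, an adjusted p of 0.494 and an exact permutation p of 0.0952 (two-sided). The interval ran from 0.986-fold to 1.16-fold.

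Neither importer passed the test. Slc39a6, a plasma membrane ZIP protein, was at 73.0, 107.8, 68.0, 91.7, 88.4 and 72.2 CPM in BKO and at 66.8, 71.1, 77.1, 84.7, 67.7 and 88.35 CPM in Cre. BKO-2, BKO-4 and BKO-5, the 3 libraries with the lowest Slc30a8, had the 3 highest Slc39a6 values of the BKO group, all above the highest Cre library, BKO-5 only just. The log2 fold change of 0.14 ± 0.11 (SE; edgeR adjusted p = 0.666) was the highest of the 9, with an interval from 0.932-fold to 1.30-fold. Slc39a14 (chr14:70303469-70351425, minus strand), an importer of zinc, iron and manganese that is induced by inflammation in liver, ranged from 32.2 to 40.7 CPM in BKO (median 36.2) and from 30.4 to 36.9 CPM in Cre (median 35.7). BKO-2, BKO-5 and BKO-6 exceeded all Cre libraries, and the log2 fold change was 0.069 ± 0.073 (SE; edgeR adjusted p = 0.755), with an interval from 0.943-fold to 1.17-fold. The IL-6 and acute-phase genes measured in the same libraries had a median log2 fold change of 0.44 over 11 tested genes, with 5 higher at an unadjusted p under 0.05 (background 8.70%) and 0 past the adjusted test. Among these were Il6 itself (27.1 ± 16.5 CPM in BKO against 9.32 ± 4.82 in Cre, SD, 6 libraries each), Lcn2, which binds bacterial siderophores (103.8 ± 48.1 against 52.8 ± 10.9), Lbp, which binds lipopolysaccharide (1.92 ± 0.578 against 0.708 ± 0.346), and Osmr, a receptor subunit for oncostatin M (log2 fold change 0.67 ± 0.25 SE). Lbp had an edgeR adjusted p of 0.130 and a DESeq2 adjusted p of 0.0148. With single libraries left out the edgeR adjusted p was 0.0252 without BKO-4 and 0.0374 without Cre-5. With any other library left out it was between 0.085 and 0.355. Lbp was scarce and dropped out of the fit that required at least 10 reads in every library. With the endothelial score, which was higher in BKO, as a covariate, the log2 fold change went from 1.53 to 0.021 for Il6. It went from 0.97 to 0.20 for Lcn2, from 1.42 to 0.76 for Lbp and from 0.67 to -0.23 for Osmr. The score ran from 5.48 to 5.89 in BKO and from 5.02 to 5.57 in Cre. Only Cre-5 reached the BKO range, so this fit separates the score poorly from genotype.

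**Figure D3:**
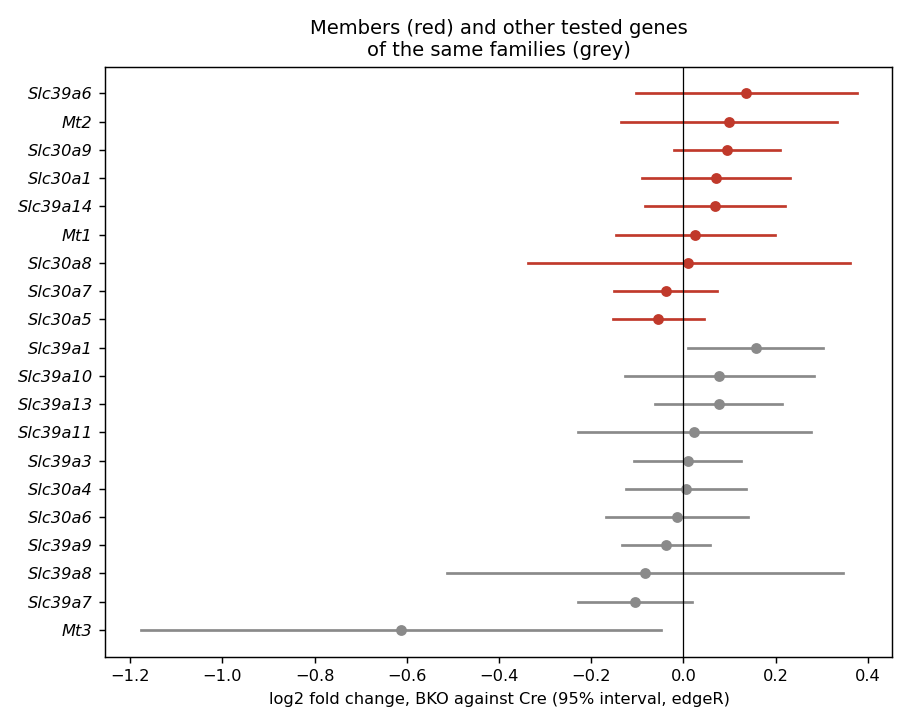
Log2 fold change (BKO against Cre) with its 95% interval from edgeR for the 9 members (red) and 11 other tested genes of the same families (grey); Slc39a4, at 1.54 with an interval from 0.62 to 2.46, is not drawn. Every member's interval includes 0, and that of Slc30a8 is the widest among them.

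Mt1 and Mt2 were the most abundant members and did not differ detectably between genotypes. Mt1 was at 1369, 1349, 1657, 1511, 1471 and 1456 CPM in BKO and at 1741, 1545, 1238, 1568, 1288 and 1277 CPM in Cre. The Cre libraries held the highest value, in Cre-1, and the 3 lowest, in Cre-3, Cre-5 and Cre-6, with the BKO libraries in between. The log2 fold change was 0.026 ± 0.082 (SE), with an exact permutation p of 0.719 (two-sided) and an edgeR adjusted p of 0.941, and the interval ran from 0.903-fold to 1.15-fold. Mt2 was at 1208, 1282, 1534, 1304, 1373 and 1247 CPM in BKO and at 1607, 1265, 1089, 1418, 953 and 1088 CPM in Cre. Here too the Cre group spanned the BKO group, and the log2 fold change was 0.099 ± 0.11 (SE; edgeR adjusted p = 0.770; interval 0.911-fold to 1.26-fold). For these genes the spread was the larger in Cre, with a coefficient of variation of 14.1% against 7.55% for Mt1 and of 19.6% against 8.80% for Mt2. Cre-1, the library with the highest values, also had the highest share of reads set aside for low alignment quality, 27.3% against 16.7% to 22.2% in the other 11, and the part of this in its values was not tested.

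The metallothioneins rose and fell together across libraries, a pattern that genes outside the family shared with Mt1 (below). Pearson's r between the log2 CPM of Mt1 and Mt2 was 0.905 (permutation p = 0.0001, adjusted 0.0006 over 6 relations) and Spearman's rho 0.888 (permutation p = 0.0003, adjusted 0.0018). It held without Cre-1 and Cre-3, the libraries farthest from the median (r = 0.863), and within each genotype (0.856 in BKO, 0.933 in Cre). The ratio of Mt1 to Mt2 CPM was 1.11 ± 0.0489 in BKO and 1.18 ± 0.0979 in Cre (SD, 6 libraries each; exact permutation p = 0.143, two-sided). These paralogs are similar in sequence, and Mt2 exons overlap Gm45774 on the opposite strand, so the split of reads between Mt1 and Mt2 is uncertain. They lie side by side on the plus strand, Mt2 at chr8:94172664-94173568 and Mt1 at chr8:94179082-94180327 (mm10).

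For Slc30a1, which shares the MTF1 pathway and whose window held 2 matches to the core, no relation with them was detected. Its Pearson's r was 0.171 with Mt1 (permutation p = 0.592, adjusted 0.710) and 0.119 with Mt2 (permutation p = 0.712, adjusted 0.712), and Spearman's rho was 0.210 (permutation p = 0.516) and 0.189 (permutation p = 0.558). Without the 2 libraries farthest from the median these r values were 0.219 and 0.334. Slc39a14 ran in the opposite direction to Mt1, with r = -0.604 (permutation p = 0.0399, adjusted 0.0798) and rho = -0.566 (permutation p = 0.0601, adjusted 0.120), which did not pass the adjustment. That r was -0.649 within BKO, -0.742 within Cre and -0.540 without Cre-1 and Cre-3. With Mt2 it was -0.464 (permutation p = 0.130, adjusted 0.195; rho = -0.441, permutation p = 0.155), or -0.417 without Cre-1 and Cre-5.

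**Figure D4:**
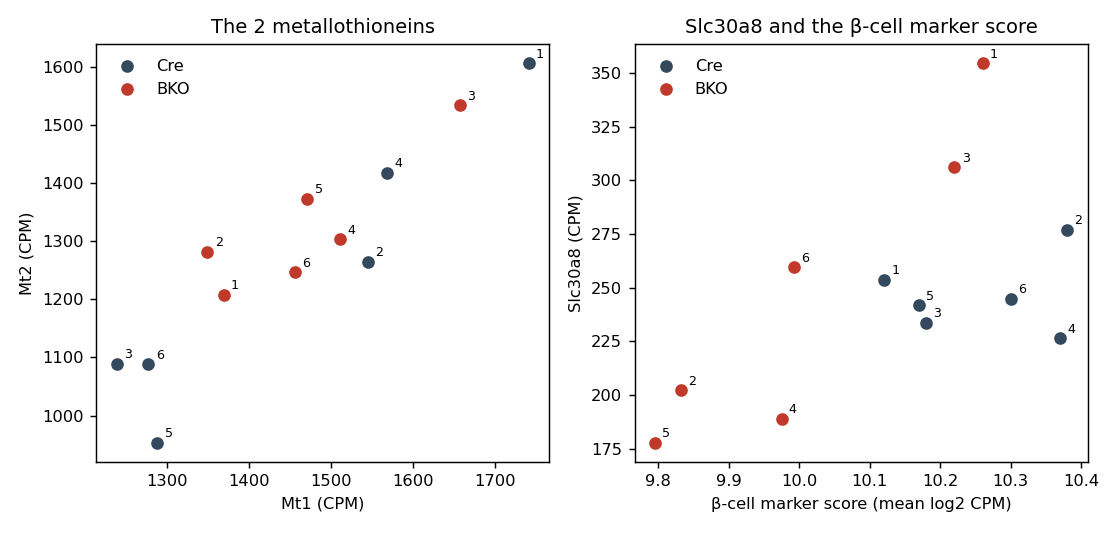
Left, Mt2 against Mt1, both in CPM; right, Slc30a8 in CPM against the β-cell marker score (mean log2 CPM of 10 genes); each point is 1 library, numbered by replicate, Cre in dark blue and BKO in red. Mt1 and Mt2 fall along a line (r = 0.905), while r between Slc30a8 and the score is 0.924 in BKO and 0.157 in Cre, a difference that was not tested.

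The genes nearest to Mt1 over the 12 libraries were Tmem5, Btf3 and Rheb, with root mean square differences of centred log2 CPM of 0.054, 0.075 and 0.077 against a median of 0.196 over 10238 genes. Rheb encodes a small GTPase that activates mTORC1, and Btf3 a subunit of the nascent polypeptide-associated complex. Mt1 itself varied by 0.148 on that scale. Mt2 was not among these nearest genes, but this measure also counts the size of the swings. The SD of log2 CPM was 0.279 for Mt2 against 0.202 for Mt1 in Cre, and 0.123 against 0.107 in BKO. Genes outside the family came this near to Mt1, so a pattern like that of Mt1 is not particular to the metallothioneins.

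Of the whole ZnT family 7 of 10 genes had enough reads to be tested, and 0 passed the adjusted test or an unadjusted p under 0.05 (backgrounds 0% and 13.4%). The family's summed level was 187.9 ± 36.4 RPKM in BKO against 186.9 ± 8.55 in Cre (SD, 6 libraries each; exact permutation p = 0.955, two-sided). Slc30a8 made up 66.1% ± 6.10 of it in BKO and 66.8% ± 1.82 in Cre. Its merged exon length is the shortest of the family, 1971 bases against 12374 for Slc30a9, which raises this share. Slc30a4, a vesicular exporter, and Slc30a6, the partner of ZnT5, were measured at 15.1 ± 1.09 and 6.95 ± 0.480 RPKM (SD, n = 12). Slc30a2, Slc30a3 and Slc30a10 had at most 11 reads in any library and were not tested.

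Of the ZIP family 11 of 14 genes were tested, and 2 were higher in BKO at an unadjusted p under 0.05 (background 8.70%) and 0 past the adjusted test. Slc39a4, the importer that takes up dietary zinc in the gut, was low in islets, at 7.07, 7.24, 1.83, 2.00, 6.05 and 3.94 CPM in BKO and at 1.63, 1.19, 0.794, 1.24, 3.70 and 1.08 CPM in Cre. All 6 BKO libraries were at 1.83 CPM or higher, a level that Cre-5 alone reached among the controls. Its log2 fold change was 1.54 ± 0.43 (SE), with an edgeR adjusted p of 0.169, a DESeq2 adjusted p of 0.0221 and a limma-voom adjusted p of 0.0822 on the same counts. Without Cre-5 edgeR gave 1.98 and an adjusted p of 0.0374, and with any other library left out the adjusted p was 0.05 or higher. Adding the endothelial covariate gave 0.51 and an adjusted p of 0.991, in a fit that separates the score poorly from genotype. The duct score, also higher in BKO (above), was 5.05, 5.485, 4.52, 5.09, 5.47 and 5.06 in BKO-1 to BKO-6. It was highest in BKO-2 and BKO-5 and lowest in BKO-3, but BKO-4, with little Slc39a4, scored slightly above BKO-1, with much; its part in the difference was not tested.

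Slc39a1, a ubiquitous plasma membrane importer, averaged 118 ± 15.2 CPM in BKO against 106 ± 3.35 in Cre (SD, 6 libraries each), a log2 fold change of 0.16 ± 0.069 (SE; edgeR adjusted p = 0.335). Slc39a7, which releases zinc from the endoplasmic reticulum, had the highest ZIP level, 131.7 ± 10.1 RPKM (SD, n = 12), although a same-strand gene, Gm20427, shares its exons. Its share of the summed ZIP level was 49.2% ± 2.06 in BKO and 52.6% ± 1.51 in Cre (SD, 6 libraries each; exact permutation p = 0.00866, two-sided, or 0.0520 after Benjamini-Hochberg adjustment over 6 sums and ratios), with all 6 BKO libraries below the Cre mean. This gene was singled out after its level had been seen, and its own log2 fold change was -0.10 ± 0.059 (SE; edgeR adjusted p = 0.478). Slc39a9 (15.0 ± 0.563 RPKM), Slc39a3 (16.1 ± 0.886), Slc39a11 (14.0 ± 2.19), Slc39a13 (6.30 ± 0.466), Slc39a10 (3.32 ± 0.391) and Slc39a8 (0.247 ± 0.0433) were also tested without reaching an unadjusted p under 0.05. Slc39a2, Slc39a5 and Slc39a12 had at most 28 reads in any library and were not tested.

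Mt3, the metallothionein best known from brain, was scarce, averaging 2.86 ± 1.57 CPM in BKO against 4.38 ± 0.769 in Cre (SD, 6 libraries each), with 5 of 6 BKO libraries below the lowest Cre library. Its log2 fold change was -0.61 ± 0.27 (SE; unadjusted p = 0.0350, edgeR adjusted p = 0.333). Without BKO-4, the BKO library with the most Mt3, it was -0.97 with an adjusted p of 0.0311. With any other library left out the adjusted p was 0.212 or higher. Mt4 had 1 read in all 12 libraries together.

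Other genes of metal handling and metallothionein control were read from the same fit. Of 5 tested genes of zinc sensing and handling, among them Mtf1, 0 reached an unadjusted p under 0.05, with log2 fold changes from -0.015 to 0.15. Of 15 tested genes of iron, copper and manganese handling, 3 were lower at an unadjusted p under 0.05 (background 4.66%) and 0 passed the adjusted test. They were the iron exporter Slc40a1 (104.5 ± 10.2 CPM in BKO against 120.4 ± 6.14 in Cre), the copper importer Slc31a1 (65.7 ± 7.81 against 72.6 ± 2.19; SD, 6 libraries each) and the copper chaperone Ccs (log2 fold change -0.15 ± 0.070 SE). Without BKO-4 Slc40a1 had an edgeR adjusted p of 0.0311, and with any other library left out it was 0.106 or higher. With the endothelial covariate the log2 fold change of Slc40a1 went from -0.20 to -0.094. That of Slc31a1 went from -0.14 to -0.12 and that of Ccs from -0.15 to -0.22. This fit separates the endothelial score poorly from genotype.

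The insulin granule list, the cargo and membrane proteins that share the organelle with ZnT8, had a median log2 fold change of -0.075 over 16 genes. Of these, 1 was lower and 1 higher at an unadjusted p under 0.05 (backgrounds 4.66% and 8.70%), counts near those shares, and 0 passed the adjusted test. The prohormone convertase Pcsk1 was at 579.9 ± 99.8 CPM in BKO against 719.6 ± 53.8 in Cre, and the granin Scg2 at 4265 ± 533 against 3703 ± 249 (SD, 6 libraries each). Without BKO-4, where 135 of all genes were called higher and 127 lower, Pcsk1 had an edgeR adjusted p of 0.0202. With any other library left out it was 0.13 or higher. With the endothelial covariate the log2 fold change of Pcsk1 went from -0.31 to -0.11, while that of Scg2 went from 0.20 to 0.36. Fits with this covariate, here and below, separate the endothelial score poorly from genotype. Glucocorticoids, like zinc, are known to induce metallothioneins. Of 9 tested glucocorticoid response genes 5 were higher at an unadjusted p under 0.05 (background 8.70%) and 0 passed the adjusted test, with the smallest p for the kinase Sgk1 (48.0 ± 8.95 CPM in BKO against 37.6 ± 5.28 in Cre, SD, 6 libraries each). Next were the glucocorticoid receptor Nr3c1 itself (120.7 ± 4.54 against 110.9 ± 2.13), the EGF receptor inhibitor Errfi1 (59.0 ± 14.3 against 43.4 ± 8.27) and the transcription factor Cebpd (128.9 ± 35.1 against 87.25 ± 20.99). With the endothelial covariate the log2 fold change went from 0.35 to 0.20 for Sgk1, from 0.12 to 0.14 for Nr3c1, from 0.44 to -0.11 for Errfi1 and from 0.56 to 0.17 for Cebpd. Among 12 genes of the oxidative and electrophile response, 1 was higher at an unadjusted p under 0.05, near the background of 8.70%, and 0 passed the adjusted test. It was the cystine transporter Slc7a11 (22.8 ± 4.47 CPM in BKO against 17.4 ± 2.76 in Cre; edgeR adjusted p = 0.224; log2 fold change 0.38, or -0.068 with that covariate).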

How the data were processed

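Total RNA of islets from 6 BKO and 6 Cre samples was sequenced as paired-end reads, per the labels' protocols. The authors deposited, for each sample, whole-number counts of reads by gene symbol. The tools named in the submitters' processing notes are HISAT2 2.0.5 and HTSeq, with mm10 as the build. The sources used here do not give the HTSeq version, annotation or strand setting. The 5 summary lines that name no gene were left out of library sizes; the line for low alignment quality held 16.7% to 27.3% of reads. A series-wide table of the same libraries, scaled per library (12 columns), was not used.

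Counts were tested with edgeR 4.0.16 (R 4.3.3): filterByExpr, TMM, glmQLFit with robust shrinkage and glmQLFTest, with Benjamini-Hochberg adjustment over 13583 genes. SE and 95% intervals come from that test. CPM use TMM-scaled library sizes, log2 CPM a prior count of 2, and RPKM the merged exon length of GENCODE M21 (GRCm38, which is mm10), which held 23376 of the 24421 symbols. Exact permutation tests used all 924 splits (smallest p 0.00216), and p-values of correlations 100000 permutations. The least-read member, Slc39a14, had at least 344 reads per library, a counting error of 5.39%; intervals do not separate this from other spread.

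The members and gene lists were chosen with earlier results of these data known. The text names all members and other family genes, up to 4 genes per list with the smallest unadjusted p under 0.05, and the 3 genes nearest in pattern to Mt1 and to Slc30a8. The lists also held markers of adipocytes, with no gene tested, and of δ and PP cells, acinar cells, macrophages, lymphocytes and Schwann cells, whose scores had exact permutation p-values of 0.117, 0.182, 0.253, 0.0952 and 0.537. Alternatives were other scalings and count filters, DESeq2 1.42.0, limma-voom (limma 3.58.1), a fit without robust shrinkage, a block for the replicate number, the acinar or endothelial score as a covariate, and each library left out. The edgeR step was tested on simulated data.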

Additional observations from a re-analysis of the deposited data

Results flagged for a closer look

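In 4 of the 70 groups of 6 libraries examined, the highest library stood apart from the other 5 by a gap above Dixon's 95% critical value, and chance gives about 1 in 20. None was a member. Slc39a4 in Cre was at 3.70 CPM in Cre-5 against 0.794 to 1.63 CPM in the other 5. Mt3 in BKO was at 5.84 CPM in BKO-4 against 1.29 to 2.91 CPM. Slc39a9 in BKO was at 157.6 CPM in BKO-6 against 147.2 to 150.9 CPM, a small difference. Errfi1, of the glucocorticoid response list, was at 59.3 CPM in Cre-5 against 36.4 to 44.0 CPM in the other Cre libraries.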

How the results depend on the processing

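Under 23 alternatives no member passed the test in either direction, and 191 of 207 member log2 fold changes kept their sign. Slc30a8 turned to -0.0016 without a count filter, -0.065 with limma-voom and -0.032 with the replicate block, and ranged from -0.12 to 0.078 with single libraries left out. It was 0.31 with the endothelial score as a covariate. Mt1 was -0.042 with the acinar score and ranged from -0.029 to 0.069 with libraries left out. With the endothelial score Slc30a1 was -0.11, Slc30a7 0.047, Slc39a14 -0.081, Slc39a1 -0.030, Errfi1 -0.11, Osmr -0.23 and Slc7a11 -0.068. This score was itself higher in BKO, so the fit separates it poorly from genotype, and the cause of the changes was not tested. Among all genes, DESeq2 called 169 higher and 54 lower, and the replicate block 292 and 72. With single libraries left out, edgeR called from 0 to 135 higher and from 0 to 127 lower (135 and 127 without BKO-4, 105 and 5 without Cre-5, 5 and 0 without BKO-3, 1 and 5 without Cre-1). The replicate numbers were not taken to pair the samples: same-numbered libraries deviated together with correlations from -0.072 to 0.26, and 4 of 6 BKO libraries correlated best with the Cre library of their own number. Among the named genes that block brought 4 past the threshold, Slc39a4 (adjusted p = 0.00887), Lbp (0.014), Pcsk1 (0.029) and Osmr (0.0473), and no member.

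Reads per library limit the scarce genes most, among them Slc39a8 with 13 to 29, Slc39a4 with 10 to 82 and Mt3 with 15 to 67. Lbp did not have 10 reads in every library.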
